A study of Mus musculus with 50 samples.

Results

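The genes described here are the Zfp genes expressed in RAW264.7, a macrophage line of mouse origin. A gene was included if its symbol was Zfp followed by a digit, it was annotated as protein coding, and its mean over all 50 libraries was at least 3 TPM (transcripts relative to library total, a level corrected for gene length). Zfp36, Zfp36l1, Zfp36l2 and Zfp334 were left out. The rule found 203 members among 396 Zfp genes at any level, 21885 protein-coding genes and 55416 genes in all. The members were therefore chosen by their measured level, which is given as a description. Mean TPM ran from 3.01 to 188.7 with a median of 9.42. The 3 members just inside the threshold were Zfp994 (3.08 TPM), Zfp760 (3.03 TPM) and Zfp953 (3.01 TPM), and the 3 genes just outside it were Zfp951 (2.99 TPM), Zfp709 (2.94 TPM) and Zfp810 (2.93 TPM).

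Zfp symbols mark zinc finger proteins, most of which carry C2H2 fingers. In such a finger, a pair of cysteines and a pair of histidines hold a zinc ion, and arrays of fingers read DNA. Many members also carry a KRAB box, which recruits the co-repressor TRIM28 (KAP1) and through it histone and DNA methylation, and KRAB zinc finger proteins are best known for silencing retroelements. Other Zfp proteins act outside transcription, as ubiquitin ligases or RNA-binding proteins.

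A finger pattern (Cys, 2 to 4 residues, Cys, 12 residues, His, 3 to 5 residues, His) was found in 199 of the 203 members in their longest coding sequence of GENCODE M21. The median was 9 fingers and the highest number 36, and 97 members had 10 or more. Zfp330, Zfp703, Zfp707 and Zfp839 had none by this pattern. A KRAB box pattern, searched in every coding transcript, was found in 79 members. To show what the members share, the coding DNA of the first finger that matched a stricter pattern is given for 6 members (the 3 that rose most with DMXAA in EV cells of b1, 2 of the 4 that fell most, and Zfp984, which was low in lines edited for SGK1), with the Cys and His codons in capitals (GRCm38):
Zfp948, chr17:21587193-21587255, plus strand: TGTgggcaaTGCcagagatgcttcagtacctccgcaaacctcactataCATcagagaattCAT
Zfp945, chr17:22852228-22852290, minus strand: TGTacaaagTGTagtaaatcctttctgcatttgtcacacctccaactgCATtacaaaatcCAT
Zfp281, chr1:136626063-136626125, plus strand: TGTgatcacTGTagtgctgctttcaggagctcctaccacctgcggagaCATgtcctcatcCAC
Zfp61, chr7:24291726-24291788, minus strand: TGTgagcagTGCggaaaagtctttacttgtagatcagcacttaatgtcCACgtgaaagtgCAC
Zfp626, chr7:27818118-27818180, plus strand: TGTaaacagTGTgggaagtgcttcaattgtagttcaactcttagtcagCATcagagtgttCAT
Zfp984, chr4:147755613-147755675, minus strand: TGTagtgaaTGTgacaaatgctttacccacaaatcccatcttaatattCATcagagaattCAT
The spacing of the capitals is the same in all 6 because the pattern fixes it, while the bases between them differ.

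The lines were edited with CRISPR. Control cells with an empty vector guide (EV), an SGK1 knockout, an SGK3 knockout and an SGK1/SGK3 double knockout (dKO) were compared. SGK1 and SGK3 are serine/threonine kinases activated downstream of PI3K. Cells were at rest or received DMXAA at 10 µg/mL for 2 h. DMXAA activates mouse STING, the adaptor that links cytosolic DNA sensing to type I interferon. In batch b1, as the labels name it, 3 libraries were resting EV cells and 3 the resting SGK3 knockout. With DMXAA there were 5 libraries each of EV cells, of the SGK3 knockout, of dKO, and of EV cells given 500 nM of the SGK inhibitor Sanofi-14h for 2 h before. In batch b2, 3 libraries each were resting EV cells, SGK1 knockout and dKO. With DMXAA there were 4 of EV cells, 4 of the SGK1 knockout and 3 of dKO. Another 4 libraries, of batch b3, are titled as reruns and entered no test. The labels name 1 line per genotype and do not say whether it was a clone, whether replicates were separate cultures, or which EV libraries received vehicle. The p-values therefore measure only the spread between these libraries.

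Libraries held 57859509 to 112007140 counts. Sgk1 was at 46.4 to 54.8 CPM (counts relative to library size, scaled for library composition) in EV with DMXAA in b1, against 1.36 to 1.99 CPM at rest, and at 3.07 to 6.02 CPM in dKO with DMXAA. In b2 it was at 24.7 to 38.1 CPM in EV with DMXAA, 1.79 to 6.67 CPM in the SGK1 knockout and 1.71 to 3.03 CPM in dKO. A low Sgk1 level with DMXAA was not particular to lines edited for SGK1. In b1 its mean was 22.1 CPM in the SGK3 knockout and 11.7 CPM with Sanofi-14h, against 51.3 CPM in EV cells. At rest in b2 it was 0.66 CPM in the SGK1 knockout and 0.61 CPM in dKO, against 2.11 CPM in EV cells, and neither was called. Sgk3 was at 97.4 to 109 CPM in EV with DMXAA of b1 and 99.4 to 112 CPM in the SGK3 knockout with DMXAA, so the mRNA level does not check the SGK3 label. In the 46 fitted libraries the 10 macrophage markers summed to at least 7100 CPM, and 18 markers of other cells (lymphocytes, neutrophils, erythroid, epithelial and fibroblast cells) to at most 2.86 CPM. In b2, libraries F, P, R and X had 15041 to 15342 genes detected and the other libraries 16387 to 17788. All 203 members entered the tests of both batches. The spread between replicates was larger in b2 (common biological coefficient of variation over all tested genes 0.473, against 0.159 in b1). The median of the values per gene was 0.163 in b2 and 0.0947 in b1 for the members, and 0.218 and 0.119 for all tested genes.

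With DMXAA, the expressed Zfp genes of EV cells in b1 fell more often than they rose. A gene was called at a Benjamini-Hochberg adjusted p under 0.05 in edgeR's quasi-likelihood test, adjusted over all 16947 genes tested in b1. Of the 203 members, 102 fell (50.2%) against 17.4% of all tested genes, and 38 rose (18.7%) against 17.9%. The remaining 63 were not called. The median member changed by -0.26 on the log2 scale, while the median of all tested genes changed by 0.0023. Among the 9129 other protein-coding genes with a mean of at least 3 TPM, 24.9% fell and 23.6% rose, with a median change of -0.016.

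**Figure D1:**
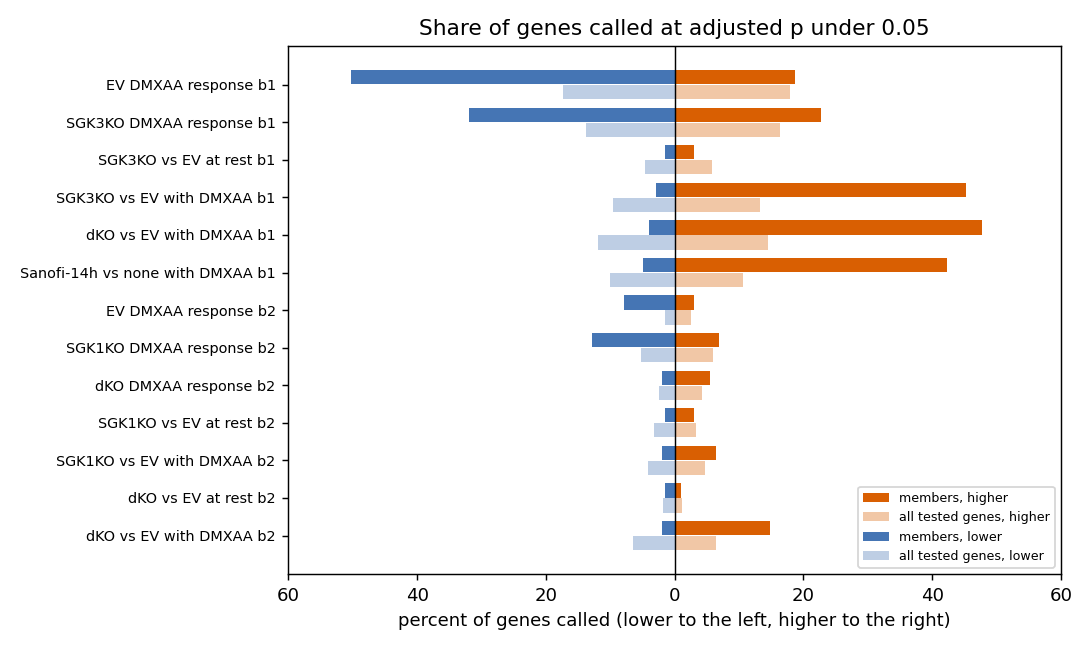
Percent of genes called higher (right, orange) or lower (left, blue) in each of 13 comparisons, for the 203 members (dark bars) and all tested genes (pale bars). In EV cells of b1 50.2% of members fell with DMXAA, against 17.4% of all tested genes.

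The same shift was visible library by library. The median over members of the log2 ratio to the EV mean at rest ran from -0.276 to -0.222 in the 5 EV libraries with DMXAA of b1, and from -0.0302 to 0.0356 in the 3 at rest. These ranges do not overlap. In b2 the 4 EV libraries with DMXAA ran from -0.216 to -0.0792 and the 3 at rest from -0.0365 to 0.0403, again without overlap. Fewer transcripts of a member per cell and fewer cells that express it cannot be told apart in bulk RNA.

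**Figure D2:**
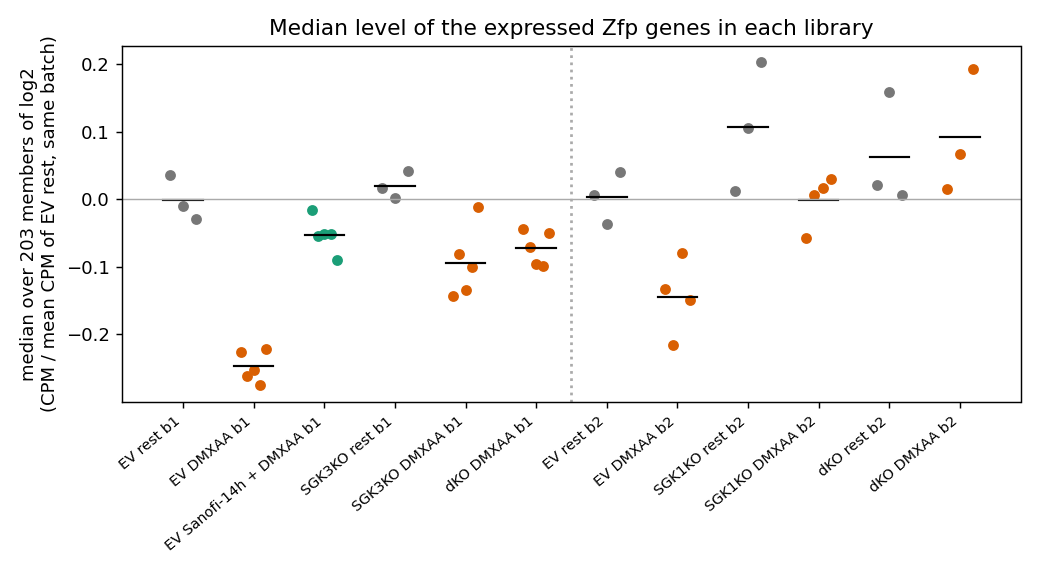
Median over the 203 members of log2(CPM / mean CPM of EV at rest in the same batch), 1 point per library, with group means as bars (grey at rest, orange DMXAA, green Sanofi-14h and DMXAA, dotted line between b1 and b2). The 5 EV libraries with DMXAA of b1 lie between -0.276 and -0.222, below the other groups of b1.

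Among the members that fell, Zfp61 (chr7:23990464-24000657, GRCm39) was at 7.37, 7.66 and 8.45 CPM at rest and at 1.98, 2.23, 1.43, 1.59 and 1.46 CPM with DMXAA. All 5 stimulated libraries lay below all 3 at rest, and the log2 change was -2.17 ± 0.17 (SE; edgeR adjusted p = 6.08e-12). Zfp111 (chr7:23893372-23910868) was at 22.2, 22.8 and 24.1 CPM at rest and between 6.39 and 8.04 CPM with DMXAA, a log2 change of -1.75 ± 0.12. Zfp324 (chr7:12699765-12708163) went from 17.8 ± 0.85 CPM (SD, n = 3) to 5.40 ± 0.53 CPM (SD, n = 5), and Zfp626 (chr7:27506621-27522341) from 15 ± 0.30 to 4.67 ± 0.45 CPM. Zfp746 encodes PARIS, a KRAB protein that is a substrate of parkin and represses the PGC-1alpha gene. It went from 26.6 ± 1.7 CPM to 9.71 ± 0.80 CPM (log2 change -1.45 ± 0.10, edgeR adjusted p = 1.01e-13). Zfp953 (-1.49), Zfp94 (-1.47) and Zfp839 (-1.40) fell by similar amounts. Zfp111, Zfp61 and Zfp94 lie next to each other in one run of members on chromosome 7.

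Among the members that rose, Zfp948 (chr17:21787270-21808961) was at 10.7, 8.79 and 8.4 CPM at rest and at 28.7, 26.1, 28.8, 28.3 and 31.9 CPM with DMXAA. The groups did not overlap, and the log2 change was 1.63 ± 0.12 (SE; edgeR adjusted p = 1.89e-12). Zfp945 (chr17:23065671-23086108), from the same stretch of chromosome 17, rose from 3.04 ± 0.29 to 8.99 ± 1.5 CPM, a log2 change of 1.56 ± 0.16. Zfp281, a GC-box binding transcription factor known from pluripotency control (chr1:136552639-136557791), was at 30.4 to 35.8 CPM at rest and at 74.2 to 85.3 CPM with DMXAA. Its log2 change was 1.27 ± 0.059 (edgeR adjusted p = 1.19e-17). Zfp959 rose by 1.18 ± 0.14 and Zfp654 by 0.99 ± 0.082 on the log2 scale, and Zfp382, Zfp131, a BTB zinc finger protein, and Zfp367 rose by 0.70, 0.69 and 0.68.

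**Figure D3:**
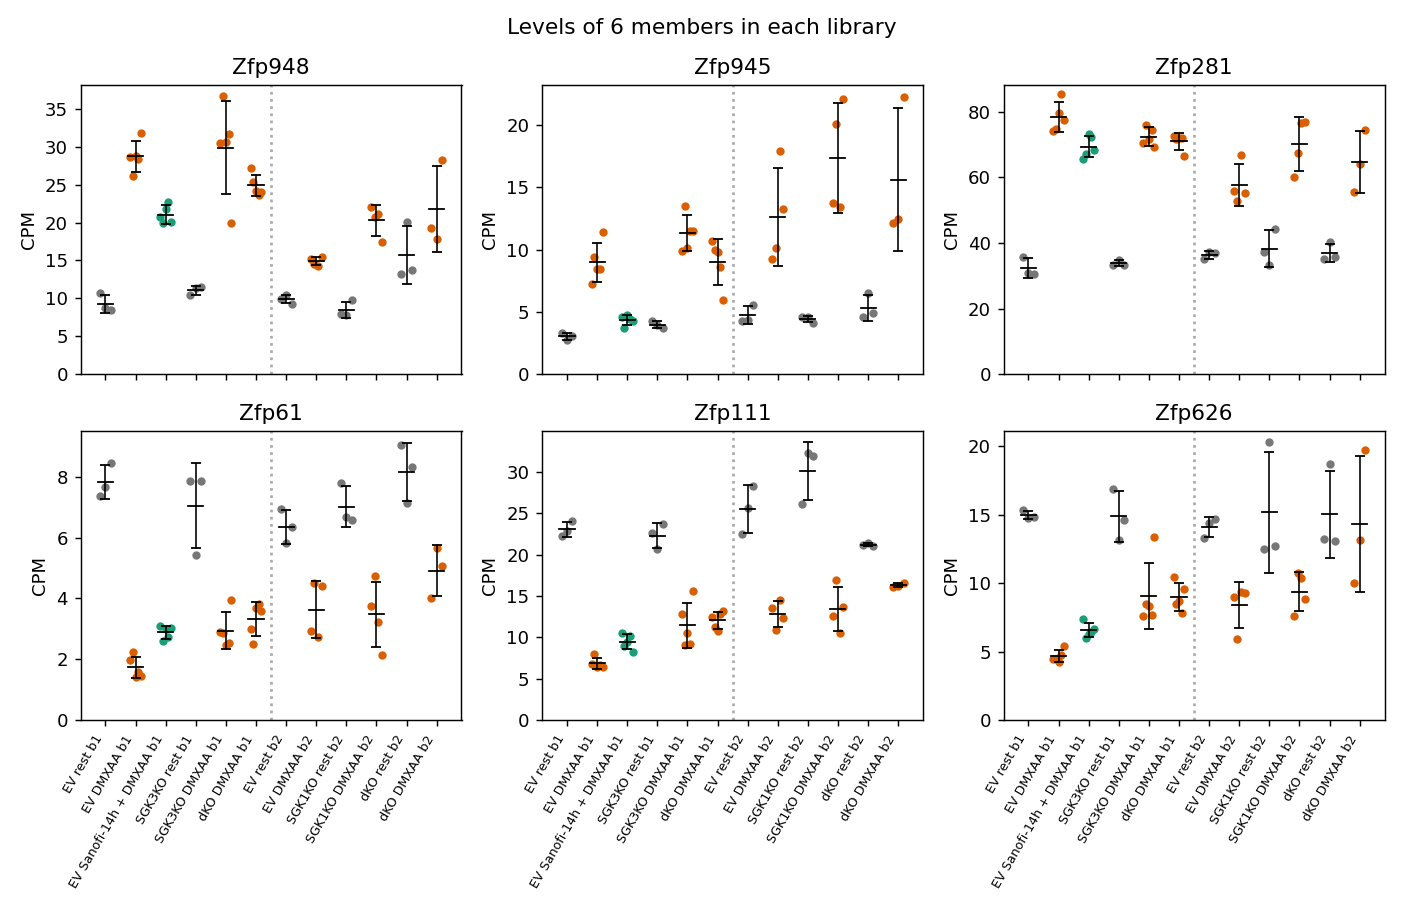
CPM of 6 members in each library of 12 groups (points; bars are mean and SD; grey at rest, orange DMXAA, green Sanofi-14h and DMXAA; dotted line between b1 and b2). Zfp948, Zfp945 and Zfp281 are higher with DMXAA in EV cells of b1, and Zfp61, Zfp111 and Zfp626 are lower, with no overlap of libraries.

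Members with known roles, from a list drawn up with earlier results of these data known, moved both ways in EV cells of b1. Of 26 measured, 12 rose, 8 fell and 6 were not called, where 17.9% of all tested genes rose and 17.4% fell and, of all 203 members, 38 rose and 102 fell. Zfp91, a ubiquitin ligase of non-canonical NF-kB signalling, rose by 0.23 on the log2 scale, and Zfp207 (BuGZ), a microtubule and kinetochore protein, by 0.22. Zfp622, a factor in maturation of the large ribosomal subunit, rose by 0.22, and Zfp638 (NP220), which silences unintegrated retroviral DNA, by 0.28. Zfp592 and Zfp687 belong to one ZMYND8-containing complex and moved in opposite directions, by 0.62 and -0.96. Zfp263, a SCAN and KRAB protein, fell by 0.93 on the log2 scale, and Zfp369 and Zfp110, the neurotrophin receptor interacting factors, changed by -0.54 and -0.26. Zfp598, the ubiquitin ligase that marks collided ribosomes, was at 80.1 ± 6.1 CPM at rest and 80.7 ± 3.6 CPM with DMXAA and was not called. Zfp143, a promoter-bound activator, and Zfp809, a silencer of murine leukaemia virus, were not called either, with log2 changes of 0.01 and -0.15. Some of these changes differed between the batches in a joint fit. The EV response of Zfp207 differed by 0.36 (b1 minus b2), more than its rise in b1. Those of Zfp263 and Zfp687 differed by -0.60 and -0.515. The differences of Zfp622 (0.33) and Zfp638 (0.49) also exceeded their rises in b1 but were not called.

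The KRAB class and the finger number are sequence features that the choice of members did not use. They are described by counts, without a test. Of the 79 members with the KRAB pattern, 46 fell and 10 rose with DMXAA in EV cells of b1, with a median log2 change of -0.336. Of the 124 without it, 56 fell and 28 rose, with a median of -0.166. The pattern was widened after these counts could be seen, and it was searched in every coding transcript of a member. The first, narrower pattern was searched in the longest coding sequence only and marked 62 members. Of these 38 fell and 7 rose (median -0.336), against 64 and 31 of 141 others (median -0.177). By finger number, 52 of 97 members with 10 or more fingers fell and 13 rose, 35 of 70 with 5 to 9 fell and 17 rose, and 13 of 32 with 1 to 4 fell and 7 rose.

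Many members lie in clusters. A run of members with gaps under 1 Mb at chr6:47812595-48063527 (GRCm39) held Zfp398, Zfp282, Zfp212, Zfp956, Zfp777 and Zfp746, of which 5 fell and 0 rose in EV cells of b1 (median log2 change -1.0). The run at chr17:21229165-23086108 held 11 members, of which 7 fell and 2, Zfp948 and Zfp945, rose. At chr15:75488528-76776595, 4 of 5 members fell and 0 rose, and at chr7:29467977-29869175, 3 of 11 fell and 4 rose. At chr17:32984470-33850753, 3 of 8 fell and 0 rose, and at chr9:19533398-20432713, 2 of 5 fell and 0 rose. Further runs are not listed. For scale, 50.2% of all members fell and 18.7% rose, against 17.4% and 17.9% of all tested genes. Whether a run departs from the member share was not tested. Members of a run include close paralogs, and the authors' treatment of reads shared by such copies is not given in the sources used here, so values of single cluster genes are uncertain to that extent.

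The RefSeq promoter table (GRCm38.p6) matched 175 members with 215 promoters of 300 bases, from 250 before to 50 after the start. The median CpG number was 17 in member promoters and 7 in all 32851 promoters. The latter belong to 27025 genes at any level, while members are protein-coding genes chosen for their expression. No reference of expressed genes was taken, so the part of that choice in the differences below was not tested. Motifs were searched on both strands, and each promoter was scored as holding or lacking each motif. The NF-kB motif (GGG and TTTCC with 2 bases between them) was in 1.86% of member promoters and 1.63% of all promoters. The ISRE motif (GAAA and GAAA with 2 bases between) was in 0.93% against 3.44%, the AP-1 motif TGANTCA in 3.72% against 7.81%, and the CRE motif TGACGTCA in 3.26% against 1.79%. In EV cells of b1, members that rose had 46 promoters, of which 1, 0, 1 and 1 held these motifs in the same order (2.17%, 0.0%, 2.17% and 2.17%). Members that fell had 101 promoters, of which 2, 1, 4 and 3 held them (1.98%, 0.99%, 3.96% and 2.97%), and members not called had 68, of which 1, 1, 3 and 3 did (1.47%, 1.47%, 4.41% and 4.41%). A motif match is a description of letters and not of a bound site.

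Genes of proteins that act with KRAB zinc finger proteins moved in both directions. Of 24 listed co-repressor, methyltransferase and HUSH-complex genes, 7 rose, 6 fell and 11 were not called in EV cells of b1, where 17.9% of all tested genes rose and 17.4% fell. Their median log2 change was 0.036. Trim28 itself was at 361 ± 14 CPM at rest and 386 ± 31 CPM with DMXAA and was not called (edgeR adjusted p = 0.184). Daxx, a histone H3.3 chaperone, rose from 42.5 to 123 CPM, and Setdb1, the H3K9 methyltransferase recruited by TRIM28, fell by 0.29 on the log2 scale.

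In b2 the EV response pointed the same way with fewer calls. Of the 203 members, 16 fell (1.46% of all 16622 tested genes fell) and 6 rose (2.52% of all rose), with a median log2 change of -0.146. These are 7.88% and 2.96% of members, against 2.05% and 4.2% of other protein-coding genes of at least 3 TPM. The 2 batches share no library. All 16 members called lower in b2 were also called lower in b1, which is 15.7% of the 102 of b1, and 5 of the 6 called higher in b2 were called higher in b1, which is 13.2% of the 38 of b1. No member was called in opposite directions, and 165 of 203 had the same sign. The log2 changes of the 2 batches had a Pearson correlation of 0.79 and a Spearman correlation of 0.78 across the 203 genes, which are not independent replicates. The same values over all tested genes are not given, so this agreement is not shown to be a trait of the members.

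**Figure D4:**
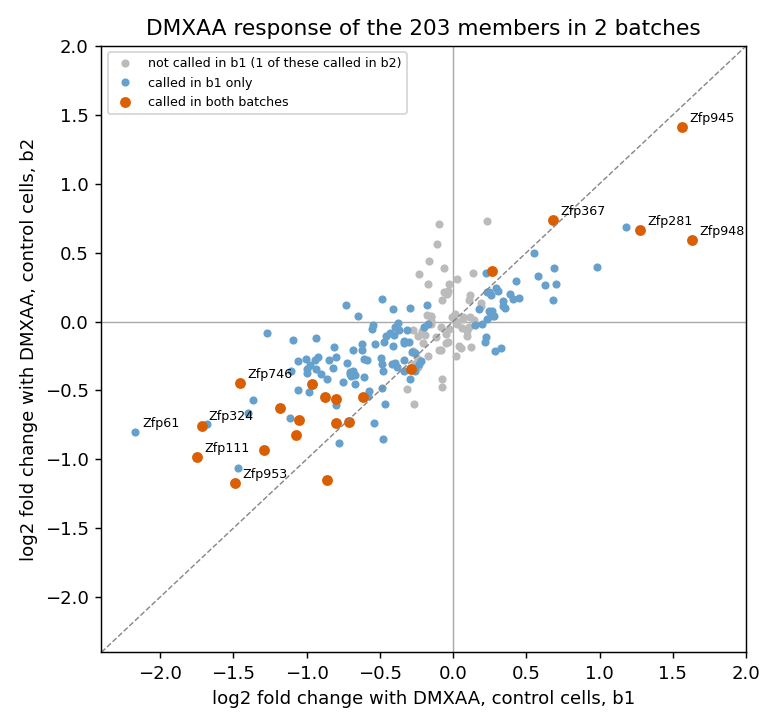
Log2 fold change with DMXAA in EV cells for each of the 203 members in b1 (x axis) and b2 (y axis), orange where called in both batches, blue where called in b1 only and grey where not called in b1, with the line of equal change dashed. The 21 orange points, 16 lower and 5 higher, have the same sign in both batches.

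Zfp945 was at 4.29, 4.38 and 5.57 CPM at rest and at 9.25, 10.1, 17.9 and 13.2 CPM with DMXAA in b2 (log2 change 1.41 ± 0.26, edgeR adjusted p = 0.00198). The 4 stimulated libraries all lay above the 3 at rest but spread widely. Zfp281 rose by 0.66 ± 0.12 and Zfp367 by 0.74 ± 0.097. Zfp111 was at 22.5, 25.6 and 28.3 CPM at rest and at 13.5, 10.9, 14.6 and 12.4 CPM with DMXAA (-0.99 ± 0.14). Zfp953 (-1.17), Zfp322a (-1.15), Zfp60 (-0.93), Zfp324 (-0.76) and Zfp397 (-0.73) fell as well. These calls held with any 1 of the 7 libraries left out. Those of Zfp948 (0.59) were lost in 7 of 7 such fits, Zfp994 (-0.82) in 6, Zfp408 (0.57) in 4, Zfp719 (-0.73) in 3 and Zfp740 (0.36) in 1. The number of members called fell from 22 to between 11 and 13 without any 1 of the libraries A, B, C, K, L or N, and was 17 without M.

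The difference between the batches was tested in a joint fit of 46 libraries. The response differed in 26 members, 21 with a lower and 5 with a higher value in b1, where 3.21% of all 18315 tested genes differed. Zfp61 differed by -1.37 ± 0.29, Zfp746 by -1.01 ± 0.16 and Zfp948 by 1.03 ± 0.20 on the log2 scale (b1 minus b2; edgeR adjusted p = 0.00267, 4.95e-05 and 6.84e-04).

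In the SGK3 knockout of b1, DMXAA lowered 65 members (13.7% of all tested genes fell) and raised 46 (16.4% of all rose), with a median log2 change of -0.0564. The shares were 32% and 22.7% of members, against 21% and 22.3% of other protein-coding genes of at least 3 TPM. With limma on log2(TPM + 1) the split was 24 higher and 73 lower. Zfp945, Zfp948 and Zfp281 rose by 1.51, 1.43 and 1.10, and Zfp61, Zfp324 and Zfp746 changed by -1.25, -1.17 and -1.05. Zfp568, a KRAB protein that represses a placental Igf2 transcript, rose by 0.83. The difference between the responses of the SGK3 knockout and EV cells was called in 16 members, all with a higher value in the knockout, where 1.04% of all tested genes were called in either direction. With limma on TPM 2 members were called. The largest differences were those of Zfp94 (1.01 ± 0.26), Zfp626 (0.97 ± 0.19) and Zfp958 (0.93 ± 0.18). Zfp94 and Zfp626 had been named for their falls in EV cells, and that choice favours a positive difference. Zfp626 had fallen from 15 to 4.67 CPM in EV cells, and it went from 14.9 ± 1.9 to 9.09 ± 2.4 CPM in the knockout, where replicate 5 with DMXAA was at 13.4 CPM and the remaining 4 at 7.59 to 8.52 CPM. Zfp958 was at 7.65 to 11.1 CPM in EV cells with DMXAA and at 13.1 to 20.8 CPM in the knockout, whose own change was not called.

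At rest the SGK3 knockout differed little from EV cells in these genes. Members called higher numbered 6 (5.84% of all tested genes were higher) and those called lower 3 (4.6% of all were lower), with a median of 0.015. Zfp827 was at 16, 16.2 and 18.4 CPM in the knockout and at 9.13, 8.16 and 7.86 CPM in EV cells (log2 difference 1.01 ± 0.13). Zfp287 was at 4.11 ± 0.75 CPM against 7.21 ± 0.79 CPM (-0.81 ± 0.16). The count was 4 without replicate 2 of the knockout.

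With DMXAA, members were higher in the SGK3 knockout than in EV cells of b1. Of the 203, 92 were called higher (13.3% of all tested genes) and 6 lower (9.59% of all), with a median log2 difference of 0.209. Among other protein-coding genes of at least 3 TPM, 19.2% were higher and 12.1% lower. Zfp626 (0.96 ± 0.12), Zfp827 (0.94 ± 0.097), Zfp94 (0.79) and Zfp623 (0.78 ± 0.12) had the largest rises without overlap of libraries. Zfp626 and Zfp94 had been picked above for low levels in the same EV libraries with DMXAA, so that choice favours a higher value here. Zfp287 (-0.95 ± 0.12), Zfp382 (-0.37), Zfp143 (-0.26) and Zfp598 (-0.14) were lower, and the call of Zfp598 was lost without EV replicate 2 or knockout replicate 1. In the same cells Ifnb1, the interferon beta gene, was at 5.76 CPM against 38.2 CPM in EV cells and Tnf at 393 against 535 CPM. Fcgr1, a macrophage marker, was at 21.6 against 66.8 CPM, and 2 of 9 tested macrophage markers were higher and 2 lower. The part of these differences in the Zfp levels was not tested.

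The double knockout of b1 gave a similar count against the same EV libraries. Its labels give DMXAA as the treatment, but its library names lack the letter D that marks DMXAA in other library names. Ifnb1 was at 1.4 to 3.06 CPM and Tnf at 246 to 373 CPM in these 5 libraries, against 0 and 32.2 to 43.3 CPM in EV cells at rest. With DMXAA 97 members were higher (14.5% of all tested genes) and 8 lower (11.9% of all), with a median of 0.206. These are 47.8% and 3.94% of members, against 21.5% and 14% of other protein-coding genes of at least 3 TPM. The 5 library medians of dKO ran from -0.0997 to -0.0443 and those of EV with DMXAA from -0.276 to -0.222, without overlap. Zfp626 was at 9.02 ± 1.0 CPM against 4.67 ± 0.45 CPM, Zfp61 at 3.32 ± 0.56 against 1.74 ± 0.35 CPM, Zfp866 at 14.9 ± 0.28 against 8.4 ± 1.5 CPM and Zfp623 at 9.55 ± 0.29 against 5.40 ± 0.53 CPM. The earlier choice of Zfp626 and Zfp61 for low levels in these EV libraries favours a higher value in dKO. Against EV cells with DMXAA, Ifnb1 had a mean of 2.59 CPM and Tnf of 341 CPM in dKO. Of 9 tested macrophage markers 1 was higher and 2, Fcgr1 (22.9 against 66.8 CPM) and Adgre1 (8.25 against 16.7 CPM), were lower, and their part in the result was not tested. Since b1 holds no dKO at rest, a DMXAA response of dKO cannot be computed in it.

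Sanofi-14h gave the same direction in EV cells. With inhibitor and DMXAA 86 members were higher than with DMXAA alone (10.6% of all tested genes) and 10 lower (10.1% of all), with a median of 0.207. These are 42.4% and 4.93% of members, against 15.8% and 15.7% of other protein-coding genes of at least 3 TPM. Of the 79 KRAB-pattern members 43 were higher and 3 lower (median 0.282), and of the 124 others 43 were higher and 7 lower (median 0.124). With the narrower pattern the counts were 38 and 2 of 62, and 48 and 8 of 141. The largest rise was that of Zfp970 (1.00 ± 0.15). Zfp12 was at 10.4, 10.7, 8.83, 10.4 and 8.09 CPM without and at 18.9, 20.2, 19.8, 16.5 and 19.8 CPM with the inhibitor (0.98 ± 0.094, edgeR adjusted p = 2.73e-09). The 2 groups did not overlap, and EV cells at rest were at 17.6 to 21.6 CPM. Zfp760 (0.82 ± 0.15) and Zfp94 (0.79 ± 0.16) were the next. For Zfp94, named above for its low level in the EV libraries with DMXAA alone, that choice favours a higher value. Ifnb1 was at 7.17 CPM and Tnf at 334 CPM with the inhibitor, and Sgk1 at 9 to 13.8 CPM. Of 9 tested macrophage markers, 4 were lower and 0 higher. Their part in the result was not tested.

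The 3 members that rose most with DMXAA in EV cells of b1 were lower with the inhibitor. They had been picked for high levels in the same EV libraries with DMXAA, so the choice itself favours a lower value. Zfp945 was at 4.56, 3.71, 4.76, 4.41 and 4.26 CPM, against 7.27 to 11.4 CPM with DMXAA alone (-1.05 ± 0.13, edgeR adjusted p = 3.61e-07). Zfp948 (-0.45 ± 0.096), Zfp382 (-0.43), Zfp654 (-0.37) and Zfp281 (-0.17 ± 0.048) were lower as well, while Zfp959 was not called. For Zfp945 the SGK3 knockout with DMXAA was at 11.3 ± 1.4 CPM and dKO at 5.99 to 10.7 CPM. All these comparisons share the EV libraries with DMXAA, so their values are given side by side. Daxx differed by -1.17, -1.35 and -1.30 on the log2 scale in the SGK3 knockout, dKO and inhibitor groups.

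In b2 the SGK1 knockout responded with 26 members lower (5.28% of all tested genes) and 14 higher (5.89% of all), a median of -0.105. These are 12.8% and 6.9% of members, against 8.25% and 9.18% of other protein-coding genes of at least 3 TPM. Without the SGK1 knockout libraries E, F and P and the dKO library X, whose log2 levels rose with gene length by more than 0.1 per doubling, the count was 8 higher and 8 lower and the median 0.0344, so the sign of the median changed without them. All 4 are knockout libraries with a positive slope. Another 5 libraries of b2 with slopes below -0.1, namely B, L and N of EV cells and T and I of dKO (-0.2 to -0.115), were kept, so leaving out the 4 does not even out the length trend between groups. With the length trend removed from every library the count was 24 higher and 33 lower. The count was also 23 to 26 without any 1 of E, F, O or Q. Zfp945 rose from 4.44 ± 0.27 to 17.4 ± 4.4 CPM (1.97 ± 0.27) and Zfp948 from 8.52 ± 1.1 to 20.3 ± 2.0 CPM (1.25 ± 0.17). Zfp111 fell from 30.1 ± 3.5 to 13.4 ± 2.7 CPM (-1.16 ± 0.14), and Zfp61 and Zfp60 changed by -1.01 and -0.98. Calls of Zfp954 (1.01) and Zfp60 were lost without the 4 libraries, that of Zfp971 (-0.99) also without any 1 of E, F, O or Q, and that of Zfp189 (0.89) without D. In the test of the difference from the EV response, 0 members were called in edgeR's test (0.451% of all genes), with 13 at an unadjusted p under 0.05, 0 by DESeq2, 0 by limma and 1 with the length trend removed.

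The dKO cells of b2 responded with 11 members higher (4.31% of all tested genes) and 4 lower (2.45% of all), a median of 0.021. These are 5.42% and 1.97% of members, against 7.01% and 4.03% of other protein-coding genes of at least 3 TPM. With upper-quartile scaling the split was 8 higher and 5 lower, and with the length trend removed 15 and 12. Zfp945 rose by 1.55 ± 0.27, Zfp189 by 1.23 ± 0.24 and Zfp281 by 0.81 ± 0.13. Zfp961 fell by 0.74, and the calls of Zfp747 (0.79), Zfp651 (-0.60), Zfp746 (-0.59) and Zfp706 (-0.33) were lost without 1 library in 5 of 6, 6 of 6, 2 of 6 and 5 of 6 fits. The count was 7 without library U, 8 without G and 6 without I. The difference from the EV response was called in 1 member (0.782% of all genes), Zfp367, which rose in EV cells and was at 58.3 to 68.3 CPM in dKO with DMXAA and 56.6 to 64.5 CPM at rest (difference -0.64 ± 0.14, edgeR adjusted p = 0.0334).

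At rest in b2, the SGK1 knockout had 6 members higher (3.28% of all tested genes) and 3 lower (3.15% of all), and dKO had 2 higher (1.16% of all) and 3 lower (1.87% of all). The medians were 0.108 and 0.064. For the SGK1 knockout the count was 2 without A, 2 without B, 30 without D, 3 without E and 1 without F, and it was 1 without E, F, P and X. With the length trend removed from every library it was 1 higher and 4 lower. In the main fit 2.96% of members were higher, against 5.23% of other protein-coding genes of at least 3 TPM. The 4 largest rises of the SGK1 knockout were those of Zfp809 (0.80), Zfp318 (0.71), Zfp651 (0.63) and Zfp592 (0.53). They were each lost without A, without B or without F, that of Zfp651 also without C and the others also without E. For dKO it was 1 to 3 without any 1 of the 6 libraries, and its rises were Zfp651 (0.71) and Zfp948 (0.67), lost in 5 of 6 and 4 of 6 such fits. Of 9 tested macrophage markers, 2 were lower (Lyz2 and Cd14) and 1 higher (Itgam) in the SGK1 knockout at rest, and 4 were lower in dKO (Cd68, Cd14, Fcgr1 and Adgre1). Library F of the SGK1 knockout had 15045 genes detected, against 17050 to 17563 in EV cells at rest. The part of these values in the result was not tested.

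With DMXAA in b2, the SGK1 knockout had 13 members higher than EV cells (4.66% of all tested genes) and 4 lower (4.07% of all), a median of 0.159. Members thus had shares of 6.4% and 1.97%, against 7.15% and 6.38% of other protein-coding genes of at least 3 TPM. The count was 7 to 11 without any 1 of K, L, N, P, Q or R. Zfp646 (0.61 ± 0.10) and Zfp385a (0.55 ± 0.13) kept their calls in those fits, while those of Zfp946 (0.54), Zfp260 (0.51) and Zfp692 (-0.76) were lost in 6, 7 and 7 of 8 fits. Zfp346 was at 27.1 ± 3.8 CPM against 40.6 ± 4.9 CPM (log2 difference -0.58), a call that was lost with limma on TPM (-0.20, adjusted p = 0.463). In dKO 30 members were higher (6.43% of all tested genes) and 4 lower (6.41% of all), a median of 0.249. These are 14.8% and 1.97% of members, against 9.74% and 10.1% of other protein-coding genes of at least 3 TPM. The count was 15 without X, 18 without L and 21 without E, F, P and X, while it was 40 with the length trend removed from every library. Zfp397 was at 29.3 ± 5.7 against 16.3 ± 2.5 CPM (0.85 ± 0.15) and Zfp367 at 64.1 ± 5.2 against 98.2 ± 3.1 CPM (-0.61 ± 0.096). The calls of Zfp950 (1.22), Zfp931 (0.98), Zfp994 (0.99) and Zfp706 (-0.32) were lost without X, those of Zfp950 and Zfp706 also without U. That of Zfp950 was lost without L, that of Zfp706 without K, and that of Zfp931 without K, M, N or T. In these dKO libraries 5 of 9 tested macrophage markers, among them Lyz2, Fcgr1 and Csf1r, were lower than in EV cells. In the SGK1 knockout with DMXAA 3 of the 9 were lower and 1 higher. Ifnb1 was at 1.09 CPM in the SGK1 knockout and 0.981 CPM in dKO, against 13.9 CPM in EV cells. The part of these differences in the result was not tested.

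The comparison of dKO with EV cells under DMXAA was made in both batches, with different libraries and, by the labels, 1 line per genotype. Of the 30 members higher in b2, 22 were among the 97 higher in b1, which is 73.3% of the first list and 22.7% of the second, where 97 of all 203 members were higher in b1. Of the 4 members lower in b2, 2 were among the 8 lower in b1, and 1 member, Zfp706, was called in opposite directions (0.15 in b1 and -0.32 in b2). The sign was the same in 159 of 203, with a Pearson correlation of 0.74 and a Spearman correlation of 0.41 across genes. The Pearson value includes Zfp984, which had the lowest value in both batches (-4.51 in b1 and -4.05 in b2). Sign and correlation over all tested genes are not given. In the joint fit the difference between batches was called in 15 members, where 7.27% of all tested genes were called. Zfp948 differed by -0.75 ± 0.18 and Zfp746 by 0.77 ± 0.15 (b1 minus b2).

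Zfp984 and Zfp277 were lower in both lines edited for SGK1, at rest and with DMXAA, and Zfp938 was called lower in both at rest in b2 and in dKO with DMXAA in b1, but in neither with DMXAA in b2. Zfp984 (chr4:147838431-147894245) was at 9.33 to 12.9 CPM in EV with DMXAA of b1 and at 0.524, 0.203, 0.411, 0.450 and 0.744 CPM in dKO (-4.51 ± 0.18, edgeR adjusted p = 1.22e-18). In b2 it was at 16.1, 13.4 and 17.0 CPM in EV at rest, at 0.888, 1.02 and 1.14 CPM in the SGK1 knockout and at 0.443, 0.961 and 0.477 CPM in dKO. With DMXAA 1 SGK1 knockout library of b2 had 0 counts of it. The SGK3 knockout was at 8.76 to 12.1 CPM at rest and 10.4 to 14.3 CPM with DMXAA, a range that overlaps the 9.12 to 12.9 CPM of EV cells.

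Zfp277, which has been described as a repressor of the Cdkn2a locus together with Polycomb proteins (chr12:40365045-40495901), was at 29.6 ± 2.1 CPM in EV with DMXAA of b1 and 16 ± 1.8 CPM in dKO (-0.89 ± 0.065). In b2 at rest it was at 27.2 ± 1.8 CPM in EV, 14 ± 3.4 CPM in the SGK1 knockout and 15.4 ± 0.40 CPM in dKO. The rest comparison with the SGK1 knockout lost its call without F, and that with dKO lost it in 6 of 6 fits without 1 library. Zfp938 (chr10:82060684-82077114) was at 4.32 ± 0.65 CPM in EV with DMXAA of b1 and 1.86 ± 0.35 CPM in dKO (-1.21 ± 0.16). At rest in b2 it was at 4.46 ± 0.67 CPM in EV, 1.51 ± 0.59 CPM in the SGK1 knockout and 1.36 ± 0.29 CPM in dKO, calls that were lost without any 1 of A, B, E or F and without A or G. With DMXAA in b2 it was not called in either line (3.38 CPM in EV, 1.96 CPM in the SGK1 knockout and 2.05 CPM in dKO). With the inhibitor none of the 3 genes was called, at 13.4, 5.68 and 30.6 CPM for Zfp984, Zfp938 and Zfp277. The SGK1 knockout and dKO are 2 lines by their labels, and whether dKO was made from the SGK1 knockout is not given in the sources used here, so the edit and the history of a line cannot be told apart.

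**Figure D5:**
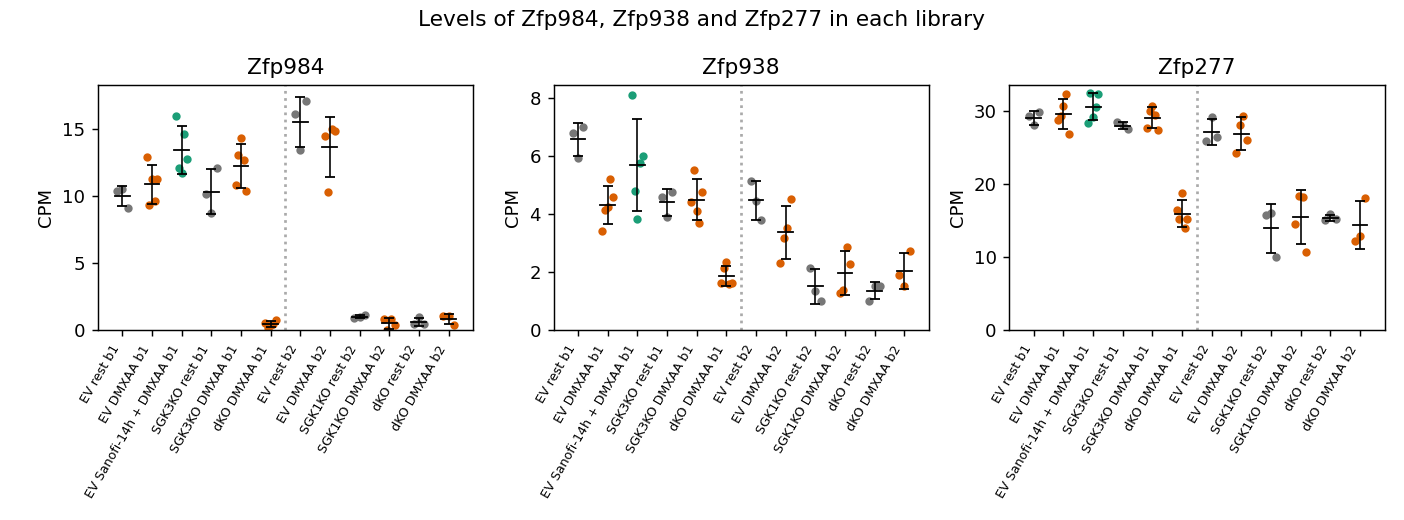
CPM of Zfp984, Zfp938 and Zfp277 in each library of 12 groups (points; bars are mean and SD; grey at rest, orange DMXAA, green Sanofi-14h and DMXAA; dotted line between b1 and b2). All SGK1 knockout and dKO libraries of Zfp984 and Zfp277 lie below all libraries of the other groups.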

How the data were processed

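Poly(A)-selected RNA of RAW264.7 cells was sequenced in 50 libraries. The authors deposited gene counts and TPM values for 55416 genes. Reads were processed with STAR 2.7.9a and StringTie 2.2.0 on GRCm39, per the submitters' processing notes, and the table names give GENCODE M27. How counts were made, their strand setting and the treatment of shared reads are not given in the sources used here. The deposited counts, estimated counts that were all whole numbers, were fitted per batch with edgeR 4.0.16 (R 4.3.3; robust quasi-likelihood, filterByExpr, TMM, 1 coefficient per group). The spread is shared by all groups of a batch, and differences between batches came from 1 fit of 46 libraries. Calls used a Benjamini-Hochberg adjusted p under 0.05 over all tested genes. Library medians used 0.1 CPM added to each level. Alternatives used DESeq2 1.42.0 and limma 3.58.1 (log2(TPM + 1)). Only edgeR's test of the EV response, in each batch, was tried on simulated counts.

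Genes were named by size of change among calls without overlap of libraries (up to 8 rises and 8 falls for EV responses, 4 each elsewhere), from a role list, and at the level threshold. Genes named for a difference between responses or batches were chosen after their values were seen. The members and lists were chosen with earlier results of these data known. Batch b3 (4 libraries, 1 without an assigned group) was not fitted. Replicate numbers of b1 did not pair libraries.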

Additional observations from a re-analysis of the deposited data

Results flagged for a closer look

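Of 330 groups of 4 or 5 libraries checked for a library far from the rest, 18 had one, where chance gives about 1 in 20. In dKO with DMXAA of b1, library 5 stood apart for Zfp281 (66.5 CPM), Zfp367 (66.8 CPM) and Zfp961 (21.5 CPM). In EV with DMXAA of b1, library 2 stood apart for Zfp111 (8.04 CPM). In EV with DMXAA of b1, library 3 stood apart for Zfp143 (23.7 CPM). In EV with DMXAA of b1, library 1 stood apart for Zfp367 (88.4 CPM) and Zfp706 (112 CPM). In EV with DMXAA of b2, library M stood apart for Zfp131 (69.3 CPM). In EV with DMXAA of b2, library L stood apart for Zfp626 (5.95 CPM), Zfp746 (25 CPM) and Zfp984 (10.3 CPM). In EV with DMXAA of b2, library N stood apart for Zfp692 (10.9 CPM). In the SGK1 knockout with DMXAA of b2, library P stood apart for Zfp94 (0.53 CPM). In the SGK3 knockout with DMXAA of b1, library 5 stood apart for Zfp397 (29.2 CPM), Zfp61 (3.96 CPM), Zfp623 (12.8 CPM), Zfp626 (13.4 CPM) and Zfp747 (11.2 CPM). 

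The following named members differed between groups by edgeR's test of the difference itself, with values on the log2 scale. For the DMXAA response of the SGK3 knockout minus that of EV cells in b1, the value was 0.786 for Zfp111, 0.664 for Zfp12, 0.591 for Zfp263, 0.71 for Zfp60, 0.764 for Zfp623, 0.972 for Zfp626, 0.634 for Zfp719, 0.628 for Zfp866 and 1.01 for Zfp94. For the DMXAA response of dKO minus that of EV cells in b2, the value was -0.642 for Zfp367. For the DMXAA response of EV cells in b1 minus that in b2, the value was -0.766 for Zfp111, -0.628 for Zfp12, 0.364 for Zfp207, -0.596 for Zfp263, 0.602 for Zfp281, -0.966 for Zfp324, -0.459 for Zfp346, -0.68 for Zfp408, -1.37 for Zfp61, -0.942 for Zfp626, 0.581 for Zfp654, -0.515 for Zfp687, -1.01 for Zfp746, 0.519 for Zfp800 and 1.03 for Zfp948. For the difference of dKO from EV with DMXAA in b1 minus that in b2, the value was 0.522 for Zfp367, -0.489 for Zfp592, -0.301 for Zfp622, 0.481 for Zfp706, 0.772 for Zfp746, -0.748 for Zfp948 and 0.502 for Zfp961.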

How the results depend on the processing

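No named or role-list result reversed. Of 1827 alternative values for the named results, 1619 stayed on the same side of the threshold and 208 lost the call. In b1 8 of 55 named calls were lost under some alternative, and in b2 36 of 58. The cause was not tested for any of the changes below. The main counts of members called stand in the report.

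With b1 and b2 in 1 joint fit, the count was 2 for the SGK3 knockout at rest, 51 for it with DMXAA, 61 for dKO with DMXAA in b1 and 53 for Sanofi-14h. In the same fit it was 48 for the EV response of b2, 83 for the SGK1 knockout response, 36 for the dKO response, 42 and 60 for the SGK1 knockout at rest and with DMXAA, and 10 and 71 for dKO at rest and with DMXAA in b2. With the groups compared alone it was 34 for the EV response of b2, 12 for the SGK1 knockout response, 7 for the dKO response and 1 for the SGK1 knockout at rest. With DESeq2 it was 23 for the dKO response of b2, 20 and 29 for the SGK1 knockout at rest and with DMXAA, 4 for the dKO minus EV response and 23 for the dKO difference between batches. With limma on TPM it was 3 and 60 for the SGK3 knockout at rest and with DMXAA, 7 for the EV response of b2, 7 for the dKO response, 6 for the SGK1 knockout with DMXAA, 2 for the SGK3 knockout minus EV response, 0 for the dKO minus EV response, and 10 and 6 for the EV and dKO differences between batches. With the length trend removed it was 35 for the EV response of b2, 27 for the dKO response, 5 for the SGK1 knockout at rest, 1 for the SGK1 knockout minus EV response and 3 for the dKO minus EV response. Without the 4 libraries of b2 whose slope on gene length was above 0.1 per doubling (5 with slopes below -0.1 were kept), it was 16 for the SGK1 knockout response, 1 for the SGK1 knockout at rest and 21 for dKO with DMXAA in b2.

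Leaving out 1 library at a time gave 127 to 137 for the EV response of b1, 100 to 118 for the SGK3 knockout response, 4 to 10 and 80 to 97 for the SGK3 knockout at rest and with DMXAA, 89 to 103 for dKO in b1 and 88 to 98 for Sanofi-14h. In b2 it gave 11 to 17 for the EV response, 23 to 45 for the SGK1 knockout response, 6 to 15 for the dKO response, 1 to 30 and 7 to 19 for the SGK1 knockout at rest and with DMXAA, and 1 to 3 and 15 to 41 for dKO at rest and with DMXAA. With the replicate number of b1 as a block, the counts were 140 for the EV response, 115 for the SGK3 knockout response, 10 and 95 for the SGK3 knockout at rest and with DMXAA, 105 for dKO and 97 for Sanofi-14h. With the block and the length trend removed they were 138, 112, 11, 88, 110 and 100. Same-numbered libraries did not deviate together (median correlation 0.021 over 57 pairs, against -0.00495 over 222 pairs of different numbers). A mean of at least 1 TPM in place of 3 would give 281 members, and one of at least 10 TPM 93. Libraries of b2 held at least 63461414 counts. The common biological coefficient of variation over all tested genes was 0.473 there against 0.159 in b1, and the median over members 0.163 against 0.0947.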

Other observations

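The 4 libraries of batch b3, all titled as reruns, entered no comparison, and 1 of them has no assigned group because its labels disagree. Library S is labelled as SGK1 knockout with DMXAA, and V and W as dKO with DMXAA. Their TPM values are given as levels only. Zfp984 was at 11.3 TPM in library J, which has no group, and at 0.405, 0.485 and 0.244 TPM in libraries S, V and W. Zfp277 was at 19.9 TPM in J and at 12, 13.6 and 12.6 TPM in S, V and W, and Zfp938 at 3.76 TPM in J and at 1.5, 1.92 and 1.69 TPM in the others.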
